A study of Mus musculus with 6 samples.

Results

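The expression of Trp53, the mouse gene for p53, and of 8 genes that are classic targets or regulators of p53 was examined in the hippocampus of adult mice after ablation of Ep300, the gene for the lysine acetyltransferase p300. The members were taken by name: Trp53, its negative regulators Mdm2 and Mdm4, the cell cycle and growth arrest genes Cdkn1a, Ccng1 and Gadd45a, the proapoptotic genes Bax and Bbc3, and the stress gene Sesn1. All 9 were found among the 55471 genes of the deposited table, and all 9 passed the filter on low values, with a mean of at least 50 normalized counts.

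The p300-ifKO mice (ifKO, inducible forebrain knockout, n = 3) carried floxed Ep300 and Camk2a_creERT2, a tamoxifen-dependent Cre recombinase that acts in excitatory forebrain neurons. The control mice (n = 3) were littermates; according to the treatment protocol they lacked creERT2, although Camk2a_creERT2 stands in the library descriptions of controls too. Both groups were labelled C57BL/6 (C57BL/6J in the methods of the study) and were male according to the same methods. All mice had an age of 3 to 6 months and were given tamoxifen 5 times by gavage. The recombined allele is described by the study as leaving a truncated p300 that lacks the acetyltransferase domain. Each library was made from whole hippocampus, in which interneurons, glia and vascular cells keep Ep300, so that fewer cells of a type and less RNA per cell cannot be told apart.

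p53 is a transcription factor that is kept scarce by the ubiquitin ligase Mdm2 and held in check by its relative Mdm4, and that accumulates after DNA damage and other stresses. It then activates genes for cell cycle arrest, DNA repair, antioxidant defense and apoptosis, among them Mdm2 itself, which closes a feedback loop. p300 and its paralog CBP can acetylate p53 and are recruited by it as coactivators. In postmitotic neurons p53 is best known for its part in death after injury.

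Because p53 recognizes a defined DNA element, the short windows around the start sites of the 9 genes were searched first. The element consists of a pair of decamers, each known as the p53 consensus half-site, separated by a spacer. RefSeq start sites on GRCm38.p6 gave 14 windows for the 9 genes, each with 250 bases before and 50 after the start, and both strands were read. An exact half-site was present in 7 of the 14 windows, beside 8.36% of all 32851 windows, and in at least 1 window of 7 of the 9 genes, beside 9.55% of the 27025 gene symbols with a window. A full element, meaning a pair of half-sites at most 13 bases apart with the C and G of each core intact and at most 2 mismatches in all, was present for 5 of the 9 genes, for 4 of 50 other pathway and paralogue genes with a window, and for 4.71% of the gene symbols. The members were taken as p53 and its known targets or regulators, so this count describes the windows and is no test of the genes.

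The following matches are printed because they show how close each promoter comes to the consensus, with half-sites in capitals and spacers in lower case. The first 2 lie in the same window of Cdkn1a and share a half-site.
Cdkn1a, spacer of 12, 0 mismatches: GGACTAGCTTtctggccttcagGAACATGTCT
Cdkn1a, no spacer, 1 mismatch: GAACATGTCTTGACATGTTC
Ccng1, no spacer, 1 mismatch: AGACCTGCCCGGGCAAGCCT
Bax, spacer of 5, 2 mismatches: TGACAAGCATatcccAGGCAAGCTT
Sesn1, spacer of 3, 2 mismatches: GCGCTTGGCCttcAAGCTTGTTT
Gadd45a, spacer of 11, 2 mismatches: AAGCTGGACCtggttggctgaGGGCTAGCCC
Trp53, single half-site, 0 mismatches: GGACTTGCCC
Mdm2, single half-site, 0 mismatches: GAACTTGCCT

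The Cdkn1a matches were at chr17:29090906-29090937 and chr17:29090928-29090947 on the plus strand. The former began 73 bases before the more distal RefSeq start and 2863 bases before the more proximal one. The Ccng1 element was at chr11:40755462-40755481 on the minus strand, 195 bases before the start. Those of Bax (chr7:45467090-45467114, minus strand), Sesn1 (chr10:41887253-41887275, plus strand) and Gadd45a (chr6:67037438-67037468, minus strand) were 216, 186 and 61 bases before the start. For Sesn1 this was the more proximal RefSeq start, which lies inside the gene locus given below. The single half-sites of Trp53 (chr11:69580284-69580293, plus strand) and Mdm2 (chr10:117710935-117710944, minus strand) lay 75 and 186 bases before the start of the gene. For Mdm4 and Bbc3 no exact half-site was found in 2 and 3 windows, respectively, which says only that these letters are not in these windows.

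Libraries held between 23151568 and 28433823 counts. Ep300 had 1545, 1474 and 2334 normalized counts (counts divided by the size factor of the library) in control mice and 478, 1350 and 912 in p300-ifKO mice, so all p300-ifKO libraries were below all control libraries. The reduction did not pass correction (log2 fold change −0.97, SE 0.33; DESeq2 unadjusted p = 0.00369, adjusted p = 0.991). Esr1, part of which is present in the creERT2 transgene, had between 2416 and 4217 normalized counts in p300-ifKO and between 87.2 and 109 in control mice. The low Esr1 counts of all controls match the treatment protocol, by which they lacked creERT2, and not their library descriptions. The libraries also differed from each other along gene length. Across 17070 genes, the rank correlation of the log2 ratio of a library to the mean with exonic length was −0.505 in p300-ifKO replicate 1, −0.275 in replicate 3 and 0.417 in replicate 2, and between 0.163 and 0.412 in the controls. These are descriptions across genes, which are not independent replicates. Ep300 is itself long, with 14.3 kb of exonic sequence. With offsets for length and GC content in each library its log2 fold change was −0.83 (DESeq2 unadjusted p = 0.000415, adjusted p = 0.907).

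Per unit of transcript length, the 9 genes covered a wide range of levels in the control hippocampus. TPM (transcript abundance scaled by length and depth, computed from the counts and the deposited exonic lengths) was highest for Ccng1, which encodes the atypical cyclin G1, at 86.0 ± 5.09 (SD, n = 3). It was followed by Bax, the pore-forming effector of mitochondrial apoptosis, at 67.4 ± 4.65 and by Sesn1, which encodes the sestrin that restrains mTORC1 in stressed cells, at 66.9 ± 3.44 (SD, n = 3). Bax and Sesn1 were not separable, since their control ranges overlapped (62.1 to 70.6 and 63.5 to 70.4). Mdm2 followed at 44.2 ± 3.06 TPM. Trp53 itself stood at 25.9 ± 1.19 and Mdm4 at 21.8 ± 5.09 TPM (SD, n = 3), again with overlapping ranges. Bbc3, which encodes the BH3-only protein Puma, was lower at 12 ± 1.18 TPM.

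The best known arrest gene of the set was among the lowest. Cdkn1a, which encodes the cyclin-dependent kinase inhibitor p21, had 6.24 ± 1.56 TPM and Gadd45a, a stress sensor of the growth arrest family, 5.35 ± 0.561 TPM in controls (SD, n = 3). The control ranges of these 2 genes overlapped. Among the 13613 genes with a mean of at least 50 normalized counts, the control level of Gadd45a was above that of 13.6% and the level of Cdkn1a above that of 16.2%, against 52.9% for Trp53, 79.6% for Bax and 84.5% for Ccng1. In p300-ifKO mice the order was the same except that Bax (83.2 ± 21.3 TPM) stood before Ccng1 (74.6 ± 19.2 TPM; SD, n = 3), and their ranges overlapped.

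**Figure D1:**
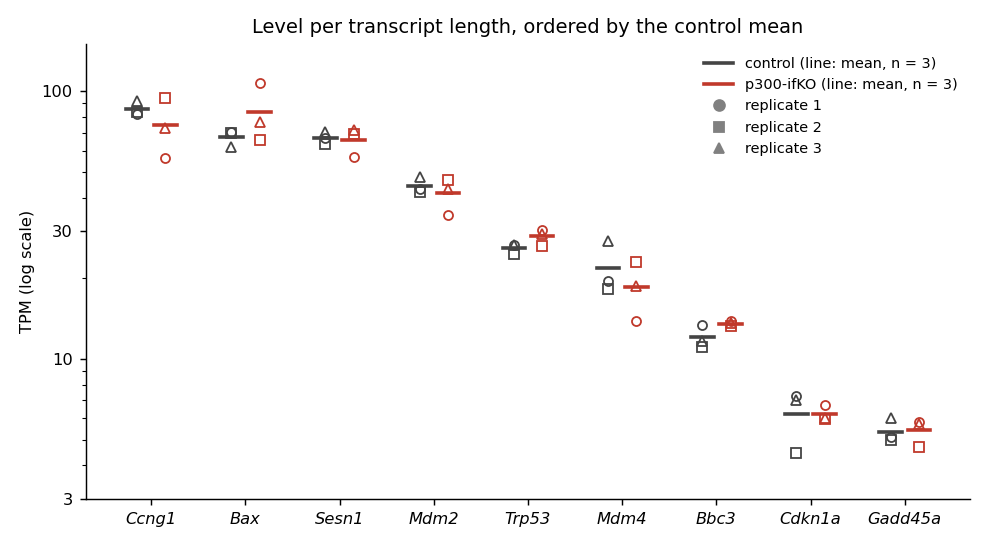
TPM (log scale) of the 9 genes in each library, ordered by the control mean, with symbols for replicates and lines for the mean of 3 mice per group. Ccng1, Bax and Sesn1 lie near the top, Cdkn1a and Gadd45a near 6 and 5 TPM, and the groups overlap for every gene.

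None of the 9 genes differed between p300-ifKO and control mice past the threshold. The DESeq2 adjusted p was 0.991 for each of the 9, and edgeR and limma-voom also called 0 of 9. Over all genes, DESeq2 called 2 of 32773 (0.0061%). At an unadjusted p under 0.05 the count was 0 of 9, beside 432 of 32773 genes (1.32%). Not 1 of the 9 had all p300-ifKO libraries above or all below the controls, which was seen for 3.21% and 3.42% of genes, respectively. Of the 9 genes, 6 had a log2 fold change above 0 and 3 below, with a median of 0.065. The median over all genes tested was −0.046, and 45.3% of them were above 0. A closer background is the 13613 genes with a mean of at least 50 normalized counts, as all 9 members have. Their median was −0.0043, and 6719 of them were above 0. Of these genes, 2.32% had an unadjusted p under 0.05 in DESeq2. All p300-ifKO libraries were above all controls for 3.76% of them and below for 3.15%.

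The regulators are described first. Trp53 (ENSMUSG00000059552, GRCm38 chr11:69580359-69591873, plus strand) had 702, 667 and 686 normalized counts in the control libraries and 912, 673 and 790 in the p300-ifKO libraries. Replicates 1 and 3 of p300-ifKO were above all controls, and replicate 2 was between the controls. The log2 fold change was 0.21 (SE 0.16, 95% interval −0.10 to 0.51), that is 15.5% higher in p300-ifKO, with a DESeq2 unadjusted p of 0.184. The controls were tight, with a coefficient of variation of 2.54%, whereas that of the p300-ifKO mice was 15.1%. Of the read-length stretches of 50 bases in its exons, 3.95% also occur in other genes, mostly in the processed pseudogene Trp53-ps, so its count is uncertain to that extent.

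Mdm2 (ENSMUSG00000020184, chr10:117688875-117710758, minus strand), the ubiquitin ligase and feedback target, had 1428, 1430 and 1543 normalized counts in control mice and 1301, 1500 and 1468 in p300-ifKO mice. Replicate 1 of p300-ifKO was below all controls, and replicates 2 and 3 were within the control range. Its log2 fold change was −0.043 (SE 0.12, 95% interval −0.28 to 0.20; DESeq2 unadjusted p = 0.723).

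Mdm4 (ENSMUSG00000054387, chr1:132959484-133030561, minus strand), which binds and inhibits the p53 activation domain, had 1882, 1820 and 2605 normalized counts in controls and 1527, 2144 and 1853 in p300-ifKO mice. Control replicate 3 was the highest of the 6 libraries and p300-ifKO replicate 1 the lowest, with the others interleaved. This gave a log2 fold change of −0.19 (SE 0.20, 95% interval −0.58 to 0.20; DESeq2 unadjusted p = 0.335). Mdm4 has the longest exonic sequence of the 9, at 14.8 kb, and 7.31% of its stretches are shared with other genes, mostly Mdm4-ps.

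**Figure D2:**
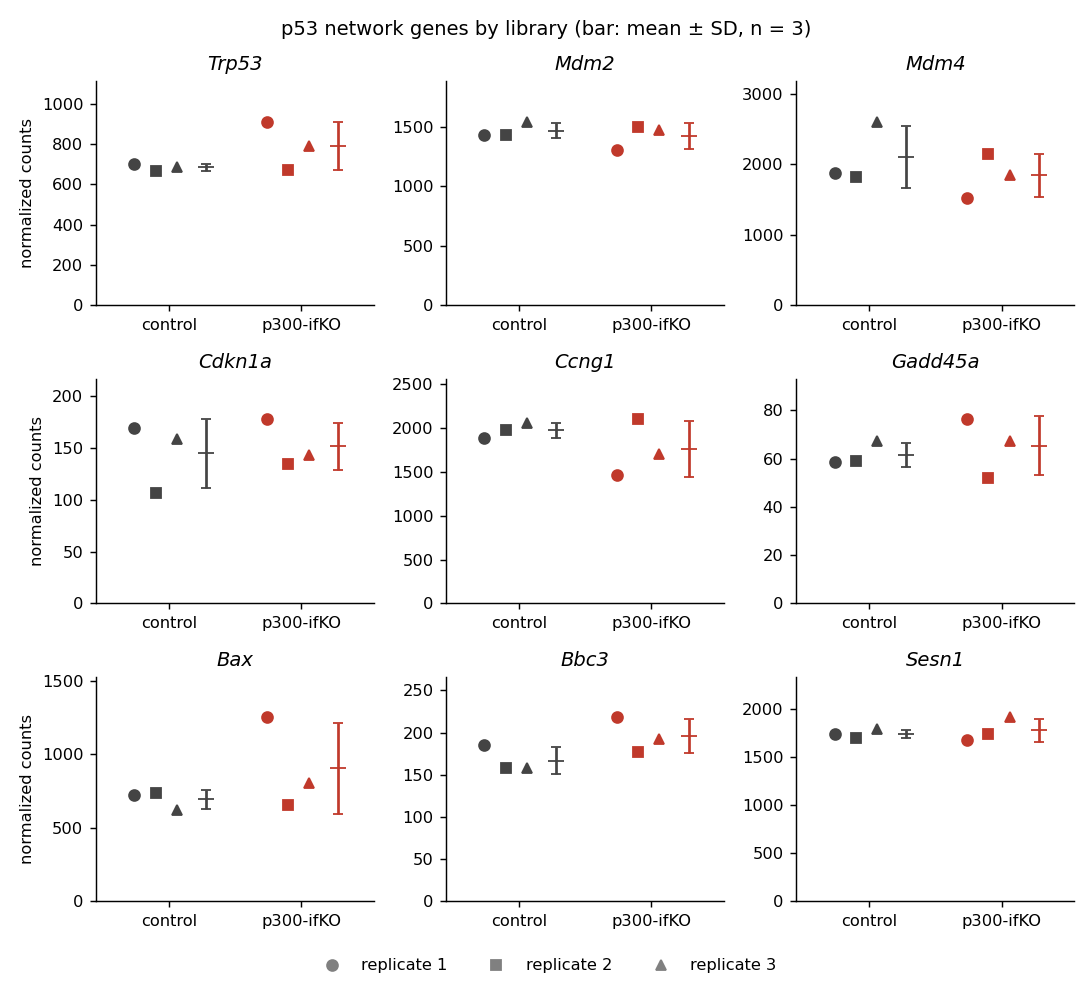
Normalized counts of each gene in the 3 control and 3 p300-ifKO libraries (y axes start at 0), with symbols for replicates and bars for the mean ± SD. In each of the 9 panels p300-ifKO replicate 1 (circle) is the highest or the lowest of the 6 libraries, and the groups overlap.

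Among the arrest genes, Cdkn1a (ENSMUSG00000023067, chr17:29090976-29100727, plus strand) had 169, 106 and 158 normalized counts in the control libraries and 177, 134 and 143 in those of p300-ifKO mice. Control replicate 2 was the lowest library, and the other 5 were between 134 and 177. The log2 fold change was 0.065 (SE 0.25, 95% interval −0.42 to 0.55; DESeq2 unadjusted p = 0.792), and it turned negative without control replicate 2 (−0.11) or without p300-ifKO replicate 1 (−0.063). A transcript model on the opposite strand, AC167363.2, covers 7.68% of its exonic bases, and the strand setting of the counting is not given.

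Ccng1 (ENSMUSG00000020326, chr11:40748552-40755311, minus strand) had 1888, 1976 and 2053 normalized counts in controls and 1468, 2097 and 1707 in p300-ifKO mice. Replicates 1 and 3 of p300-ifKO were below all controls and replicate 2 above them all. The difference on the log2 scale was −0.17 (SE 0.16, 95% interval −0.49 to 0.15; DESeq2 unadjusted p = 0.307).

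Gadd45a (ENSMUSG00000036390, chr6:67035096-67037457, minus strand), the gene with the fewest counts of the 9, had 58.7, 58.8 and 67.4 normalized counts in controls and 76.3, 52.1 and 67.5 in p300-ifKO mice. The p300-ifKO libraries held both the highest and the lowest value. With a log2 fold change of 0.079 (SE 0.28, 95% interval −0.47 to 0.63; DESeq2 unadjusted p = 0.776), it also had the widest interval. E230016M11Rik, on the opposite strand, covers 19.1% of its exonic bases.

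Both proapoptotic genes had higher means in p300-ifKO mice without passing the test, although with 1 surrogate variable the log2 fold change of Bax was −0.003. Bax (ENSMUSG00000003873, chr7:45461697-45466898, minus strand) had 726, 735 and 623 normalized counts in controls and 1252, 656 and 808 in p300-ifKO mice. Replicate 1 stood far above the other 5 libraries, replicate 3 was above the controls and replicate 2 was among them. The log2 fold change, 0.38 (SE 0.24, 95% interval −0.091 to 0.85; DESeq2 unadjusted p = 0.114), was the largest of the 9 in size. Leaving out replicate 1 gave 0.074 (DESeq2 unadjusted p = 0.621). Leaving out replicate 2 gave 0.57, and the DESeq2 adjusted p was then 0.0503 at the default target of the filter and 0.0483 at a target of 0.05, a choice described with the processing. Gm45808, on the same strand, covers 12.18% of the exonic bases of Bax.

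Bbc3 (ENSMUSG00000002083, chr7:16308393-16318205, plus strand) had 185, 158 and 158 normalized counts in controls and 218, 178 and 193 in p300-ifKO mice. Only p300-ifKO replicate 2 was below the highest control. The log2 fold change was 0.23 (SE 0.19, 95% interval −0.14 to 0.60; DESeq2 unadjusted p = 0.22).

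Sesn1 (ENSMUSG00000038332, chr10:41809935-41908424, plus strand) had the lowest coefficient of variation of the 9 in both groups, 2.49% for control and 6.81% for p300-ifKO mice. Its normalized counts were 1733, 1699 and 1785 in controls, against 1679, 1733 and 1909 in p300-ifKO mice, with 1 p300-ifKO library below, 1 among and 1 above the controls. The log2 fold change was 0.029 (SE 0.11, 95% interval −0.20 to 0.25; DESeq2 unadjusted p = 0.802), the narrowest interval of the 9.

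Across the set, all 9 intervals held 0 and all 9 lay within −1 and 1 on the log2 scale, so a 2-fold difference in either direction was outside each of them. Only 3 of 9 (Mdm2, Sesn1 and Ccng1) lay within −0.5 and 0.5. The intervals of the other 6 reached beyond 0.5 in size in at least 1 direction.

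**Figure D3:**
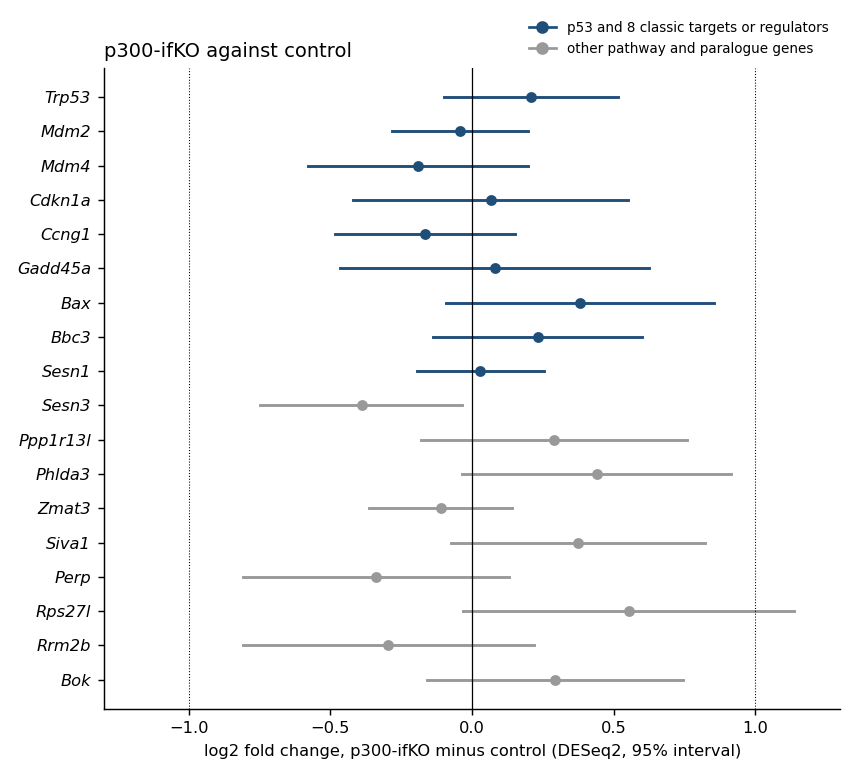
DESeq2 log2 fold change of p300-ifKO minus control with 95% interval for the 9 genes (blue) and for other pathway and paralogue genes named in the text (gray), with dotted lines at −1 and 1. All 9 blue intervals cross 0, and of the gray ones that of Sesn3 does not; Hipk2, with an interval of −3.49 to 1.25, is left out of the plot.

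The spread within the p300-ifKO group had a common order. Replicate 1 was the highest of the 6 libraries for Trp53, Cdkn1a, Bax, Bbc3 and Gadd45a and the lowest for Mdm2, Mdm4, Ccng1 and Sesn1, that is an extreme library for 9 of 9 genes. The same library was the highest or lowest for 79.7% of the 13613 genes with a mean of at least 50 normalized counts, the background against which this count is to be read. Without it, the 9 log2 fold changes were between −0.075 and 0.15. Without p300-ifKO replicate 2 in its place, 3 of 9 genes (Trp53, Bax and Ccng1) had an unadjusted p under 0.05 in DESeq2, beside 12.8% of all genes tested, and 0 of 9 had an adjusted p under 0.05, beside 2.88%.

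The effects also followed gene length, as did those of genes at large. Across 17070 genes the rank correlation of the log2 fold change with exonic length was −0.44 and with GC content 0.291. The short genes Bax (1.58 kb) and Bbc3 (2.12 kb) had positive log2 fold changes and the long Mdm4 a negative one. When genes with a mean of at least 50 normalized counts were placed in 20 bins of length, the median log2 fold change of the bin was 0.24 for Bax, 0.19 for Bbc3 and −0.21 for Mdm4, beside 0.38, 0.23 and −0.19 for the genes themselves. Trp53 (4.05 kb) had 0.21 in a bin with a median of 0.015, and Ccng1 (3.51 kb) had −0.17 in a bin with a median of 0.069. Gadd45a, at 1.76 kb, was below the median of its bin (0.079 beside 0.24).

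With smooth offsets for length and GC content in each library, Bax was at 0.12 (SE 0.14), Bbc3 at 0.036 (SE 0.17) and Mdm4 at 0.052 (SE 0.11) on the log2 scale. Trp53 kept most of its difference, at 0.18 (SE 0.13; DESeq2 unadjusted p = 0.17). With 1 surrogate variable, Trp53 was at 0.062 on that scale. How much of any of these differences belongs to the genotype and how much to the libraries was not tested.

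**Figure D4:**
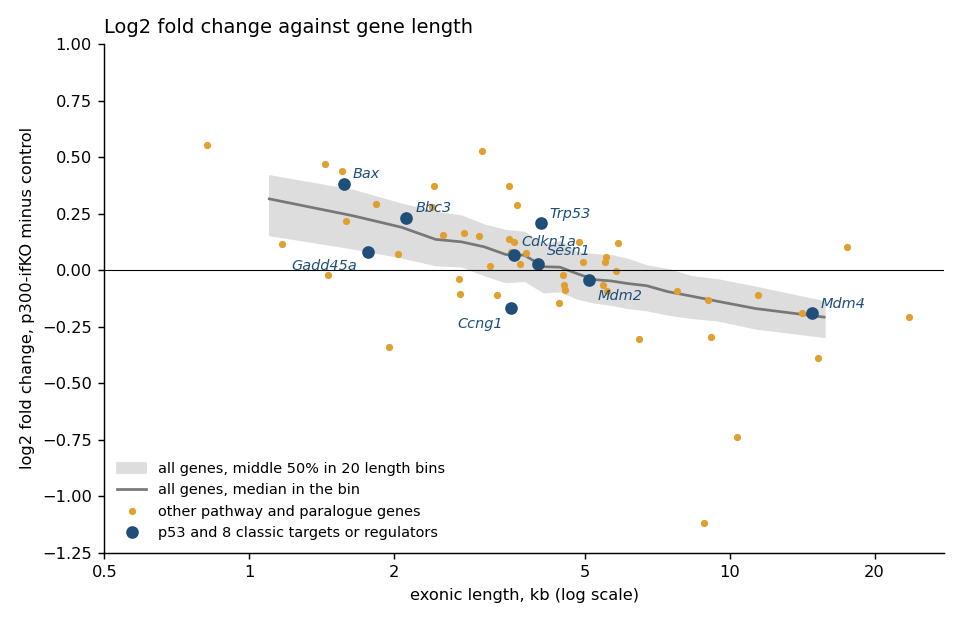
DESeq2 log2 fold change of p300-ifKO minus control against exonic length in kb (log scale) for the 9 genes (blue), other pathway and paralogue genes with a mean of at least 50 normalized counts (orange) and all genes of that level (gray line, median in 20 length bins; band, middle 50%). The line falls from 0.32 in the bin of the shortest to −0.21 in that of the longest genes, and Bax, Bbc3, Mdm2 and Mdm4 lie within or near the band.

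**Figure D5:**
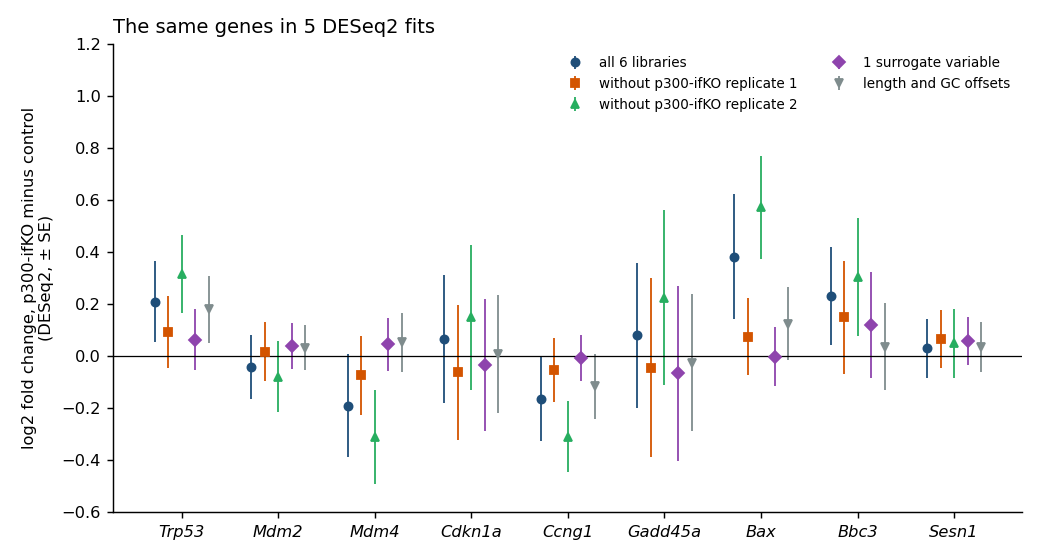
Log2 fold change ± SE of the 9 genes in 5 DESeq2 fits: all 6 libraries, without p300-ifKO replicate 1 or 2, with 1 surrogate variable, and with length and GC offsets. Bax moves from 0.57 without replicate 2 to −0.003 with the surrogate variable, while Sesn1 stays between 0.029 and 0.065.

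The wider p53 network was read from 4 lists with 51 genes tested: upstream regulators, arrest genes, apoptosis genes, and genes for repair and metabolism. DESeq2 called 0 of 51 at an adjusted p under 0.05 and 0 of 51 at an unadjusted p under 0.05. Log2 fold changes were above 0 for 25 and below 0 for 26, with a median of −0.002. All p300-ifKO libraries were above all controls for 3 of 51 (5.88%) and below them for 3 of 51 (5.88%), beside 3.21% and 3.42% of all genes. The former were Pmaip1, which encodes the BH3-only protein Noxa, the repair endonuclease gene Ercc5 and the glutaminase gene Gls2. The latter were Perp, the apoptosome gene Apaf1 and Cdkn2a, the last with only 1 to 4 counts per library. These 6 were chosen after their values were seen.

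Of the 15 upstream genes tested, 7 were higher and 8 lower, with a median log2 fold change of −0.091. Among those with at least 50 normalized counts, Ppp1r13l, which encodes the p53 inhibitor iASPP, had the highest value, 0.29 (SE 0.24; DESeq2 unadjusted p = 0.228). The lowest was that of Hipk2, a kinase that phosphorylates p53, at −1.12 (SE 1.21; DESeq2 unadjusted p = 0.356). Its normalized counts were 277, 228 and 1293 in controls and 41.9, 635 and 152 in p300-ifKO mice, so the libraries of both groups were spread over a far wider range than those of the 9 members.

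The arrest list had 3 genes higher and 7 lower of 10. Phlda3, a repressor of Akt signaling, was the highest of the expressed ones, with 315, 302 and 309 normalized counts in controls and 565, 295 and 396 in p300-ifKO mice. Replicate 1 was far above the controls, as for Bax, whereas replicate 2 was just below them (log2 fold change 0.44, SE 0.24, DESeq2 unadjusted p = 0.0703). The value was 0.16 without replicate 1, 0.094 with 1 surrogate variable and 0.19 with length and GC offsets. Zmat3, an RNA-binding p53 target, was the lowest at −0.11 (SE 0.13; unadjusted p = 0.384 in DESeq2).

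Apoptosis genes were evenly split, with 6 of 12 in each direction. Siva1, a proapoptotic target, had 0.37 (SE 0.23; DESeq2 unadjusted p = 0.103) and Perp, a membrane protein gene, −0.34 (SE 0.24; unadjusted p = 0.157 in DESeq2) on the log2 scale. In the list for repair and metabolism 9 of 14 were higher. Rps27l, a p53-inducible ribosomal protein gene, was the highest at 0.55 (SE 0.30; DESeq2 unadjusted p = 0.0637), and Rrm2b, the p53-inducible subunit of ribonucleotide reductase, the lowest at −0.30 (SE 0.26; unadjusted p = 0.259 in DESeq2). Rps27l is the shorter of these 2, at 0.816 kb against 9.13 kb of exonic sequence. Without p300-ifKO replicate 1, the log2 fold change was 0.16 for Siva1, 0.19 for Rps27l and −0.038 for Rrm2b, and with 1 surrogate variable it was 0.11, 0.13 and 0.015. Without p300-ifKO replicate 2, DESeq2 called 2 of 51 pathway genes, beside 2.88% of all genes: Phlda3 (0.64, adjusted p = 0.0345) and, named after its values were seen, the glutathione peroxidase gene Gpx1 (0.71, adjusted p = 0.0227).

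Several genes of the network were at or near the limit of detection in every library. Gdf15, a secreted stress factor, had 0 to 2 counts, Sco2, a factor for cytochrome c oxidase assembly, 0 to 4, and Trp53cor1, a noncoding RNA next to Cdkn1a, 0 to 8. At such counts no difference was detectable. These genes, like Plk2, Trp63 and Trp73, were named after their values were seen. By contrast, the polo-like kinase gene Plk2 had 204 TPM in controls, above each of the 9 members.

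The paralogues of the members offered a further comparison. Of 11 tested, 7 were higher and 4 lower, and DESeq2 called 0 at an adjusted p under 0.05. Sesn3, which like Sesn1 encodes a sestrin, had 2418, 2623 and 3386 normalized counts in controls and 1798, 2337 and 2294 in p300-ifKO mice. All p300-ifKO libraries were below all controls, and the log2 fold change was −0.39 (SE 0.18; DESeq2 unadjusted p = 0.032, adjusted p = 0.991), which does not pass correction. It was −0.44 without control replicate 2 (DESeq2 unadjusted p = 0.0542), −0.23 without control replicate 3 (DESeq2 unadjusted p = 0.224), −0.15 with length and GC offsets (DESeq2 unadjusted p = 0.188) and −0.20 with 1 surrogate variable (DESeq2 unadjusted p = 0.0531). In all other alternatives the unadjusted p stayed under 0.05, from 0.0105 without p300-ifKO replicate 2 to 0.049 without p300-ifKO replicate 3 (both DESeq2). Over all 19 alternatives Sesn3 was between −0.486 and −0.15, and its lowest adjusted p was 0.072 (DESeq2). Its exonic length, 15.3 kb, is close to that of Mdm4. The highest value was that of Bok, a relative of Bax, at 0.29 (SE 0.23; DESeq2 unadjusted p = 0.204). As for Bax, its p300-ifKO replicate 1 (2903 normalized counts) was above and its replicate 2 (1606) within the control range of 1551 to 2053, and without replicate 1 the log2 fold change of Bok was 0.024. Sesn2 (0.14) and Gadd45b (0.22), chosen after their values were seen, had unadjusted p values of 0.296 and 0.223 in DESeq2. Trp73 and Trp63, the other p53 family genes, had 3.01 and 0.875 TPM in controls, against 25.9 TPM for Trp53.

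The genes that followed Trp53 most closely over the 6 libraries were Ccdc136 (Pearson r = 0.9972), Rnpepl1 (0.9959) and R3hcc1l (0.9958) on the log2 scale. Of 13613 genes compared, 2031 had r above 0.9 with Trp53, so such values were common in these libraries. For Cdkn1a the closest were Tmem74b (0.9816), Tctn1 (0.9784) and Lad1 (0.9773), and 41 genes had r above 0.9. These values describe likeness over 6 libraries that differ in the length trend given above, and none of the 6 genes is a member or a listed pathway gene.

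All 58 marker genes used to check the tissue had counts, and the lowest mean of an excitatory neuron marker was 6.4 TPM. Of the 8 marker lists, that of microglia was the one whose summed level did not overlap between groups, with 658 to 720 TPM in control and 726 to 898 TPM in p300-ifKO libraries. In it, 7 of 9 genes had a log2 fold change above 0. Of these, 3 had an unadjusted p under 0.05 in DESeq2, and none an adjusted one. The unadjusted share was 1.32% of all genes tested and 2.32% of genes with a mean of at least 50 normalized counts. The 3 were Trem2 and the short genes C1qa (1.04 kb) and C1qb (1.09 kb). For C1qa and C1qb, p300-ifKO replicate 2 was within the control range of normalized counts. Cx3cr1 (−0.09) and P2ry12 (−0.015) were below 0 on the log2 scale. The sums were not corrected for the length trend described above. The highest microglial sum was that of p300-ifKO replicate 1, which was also the highest library for Trp53, Cdkn1a, Bax, Bbc3 and Gadd45a. That library was the highest for 39.4% of the 13613 genes with a mean of at least 50 normalized counts. It also had the highest summed level of interneuron markers, 2396 TPM. The part of microglia in the values of Trp53, Cdkn1a, Bax, Bbc3 and Gadd45a was not tested. The summed level of choroid plexus markers was between 27.8 and 397 TPM in controls and between 106 and 595 TPM in p300-ifKO mice, and that of blood markers between 411 and 827 and between 292 and 626 TPM.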

How the data were processed

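Total RNA of whole hippocampus was sequenced by the authors as single-end reads of 50 bases, with 1 library per mouse. Per the labels and the methods of the study, reads were trimmed (Trim Galore 0.6.4), aligned with STAR 2.6.1 to GRCm38, kept above a mapping quality of 10 and assigned to exons of Ensembl genes with Rsubread. The deposited table holds these raw counts per gene, with 0 unused per-sample columns. The quality limit lowers the counts of genes with near-identical copies, and the strand setting is not given in the sources used here.

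The titles of the samples gave the group and the replicate number. Symbols, coordinates and overlaps came from GENCODE M21 on the same build (99.57% of genes matched), and promoter windows from RefSeq. Control and p300-ifKO mice were compared with the two-sided Wald test of DESeq2 (version 1.42.0, R 4.3.3; default Cook and independent filtering), as the study names this tool, with Benjamini-Hochberg adjustment over all genes and a threshold of 0.05. The target level of independent filtering was first set to 0.05 and then to the DESeq2 default of 0.1, after both results had been seen. Among the members the change moves 1 call: without p300-ifKO replicate 2, the DESeq2 adjusted p of Bax is 0.0483 with the former and 0.0503 with the latter. In that fit, 951 genes are called in all with the former and 921 with the latter. Cdkn1a and Bbc3 have an adjusted p there only with the latter. With all 6 libraries no call depends on the change.

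Alternatives were the edgeR quasi-likelihood test (version 4.0.16, with and without a filter), limma-voom (limma 3.58.1), TMM factors, a minimum of 10 counts in 3 libraries, no Cook filtering, no independent filtering, an adjusted p of 0.1 as threshold, the replicate number as a block, 1 surrogate variable (sva 3.50.0), length and GC offsets (mgcv 1.9.3), and leaving out each library. DESeq2 and edgeR were also run on simulated counts that lacked the length trends of these libraries. That run cannot show how the fits behave on libraries with such trends.

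Members, gene lists and tests were chosen with earlier results of these data known. Named genes are the 9 members, genes of the pathway and paralogue lists with a p under 0.05, per such list the highest and lowest log2 fold change among genes with a mean of at least 50 normalized counts, Ep300, Esr1, and the 3 genes most like Trp53 and Cdkn1a. The remaining genes in the text were picked with their values in view.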

Additional observations from a re-analysis of the deposited data

How the results depend on the processing

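Of the members, 0 of 9 passed an adjusted p of 0.05 in every alternative but 1. That alternative, added after seeing the data, left out p300-ifKO replicate 2 and set independent filtering at 0.05. In it, 1 of 9 members (Bax, 0.57, adjusted p = 0.0483 in DESeq2) and 2 of 51 pathway genes passed, beside 951 of 32019 genes tested. At the default target the same libraries gave 0 of 9 members and 2 of 51 pathway genes, beside 921 of 32019 genes tested (2.88%). Leaving out each library gave 2 to 921 calls among all genes, 0 to 2 among pathway genes and 0 among paralogues. Over these 6 fits the log2 fold change of Mdm2 was between −0.08 and 0.016, of Cdkn1a between −0.111 and 0.196, of Sesn1 between −0.027 and 0.065, of Gadd45a between −0.046 and 0.224 and of Hipk2 between −2.62 and 0.133. The median of the 9 members was between 0.014 and 0.148 over these fits.

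With 1 surrogate variable the log2 fold change turned for Mdm2 (0.039), Mdm4 (0.044), Cdkn1a (−0.036), Bax (−0.003), Gadd45a (−0.067), Hipk2 (0.139), Rrm2b (0.015) and Bok (−0.062). With length and GC offsets it turned for Mdm2 (0.032), Mdm4 (0.052), Gadd45a (−0.026) and Zmat3 (0.064). Leaving out 1 library turned Cdkn1a (control replicate 2, or p300-ifKO replicate 1 with −0.063), Mdm2 and Gadd45a (p300-ifKO replicate 1), Sesn1 (p300-ifKO replicate 3) and Hipk2 (control replicate 3). The cause was not tested. None of these values passed the test before or after.

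The labels do not say whether mice of the same replicate number form pairs. Across 17070 genes, the correlation of deviations from the group means was 0.262, −0.263 and 0.171 for the 3 numbers. These correlations include the length trends of the libraries, so they cannot decide whether the mice were paired. With the replicate block, DESeq2 called 4 genes in all in place of 2 and 0 of 9 members. The remaining alternatives changed no count by more than 1.5 times. Ep300 passed with 1 surrogate variable (−0.483, adjusted p = 0.00127 in DESeq2) and without p300-ifKO replicate 2 (−1.36, adjusted p = 0.000369). With 3 mice per group, intervals reached from 0.223 to 0.545 on either side of a member's value.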
